A study of Oryza sativa Japonica Group with 6 samples.

Results

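The genes described here are 8 rice peroxidase loci, out of 55986 loci with a deposited value, and each of the 8 carries the description of a putative, expressed peroxidase precursor. They were selected on the comparison that is described below. The study listed them among oxidative stress genes that were higher in the overexpression plants, by its own test of these 6 samples (fold change of 1.5 or more, false discovery rate under 0.05). They lie outside the peroxidase clusters on chromosome 7 and around LOC_Os03g25320. Because the same samples chose them, their differences between genotypes are given as a description, with no test. The overexpression plants (OEZ) carried the OsLTPL159 allele of the cold-tolerant introgression line IL112 under the 35S promoter in the japonica variety Zhonghua17, and the control plants (ZH17) were nontransformed Zhonghua17. Both genotypes were sampled as early seedlings with 5 mm buds after 3 h at 2 °C. There were 3 biological replicates of each genotype, and every replicate was a pool of 50 plants. No sample without cold treatment was analysed here, so the values compare genotypes in the cold and give no response to cold. The sources used here do not state how many independent transgenic lines the OEZ pools held.

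Plant secretory peroxidases, also called class III peroxidases, are heme enzymes that enter the secretory pathway and work in the cell wall, the apoplast or the vacuole. With hydrogen peroxide they oxidise phenolic compounds, which can cross-link wall polymers and polymerise lignin and also uses up hydrogen peroxide; some can also produce reactive oxygen species. Rice has a large family of these genes, and its members differ in tissue and in response to stress. No individual role is annotated for any of the 8 loci in the sources used here, and none is assigned.

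The locus identifiers place 3 of the 8 genes on chromosome 3 (LOC_Os03g02939, LOC_Os03g22020 and LOC_Os03g32050) and 1 each on chromosomes 4, 6, 7, 8 and 10. Identifiers are numbered along each chromosome, so the order of loci is known from them. Another peroxidase of the study's list of differentially expressed genes was between 261 and 1902 places away on the same chromosome. The closest was LOC_Os03g25320, 261 places from LOC_Os03g22020. No other peroxidase of that list lay on chromosome 10. Descriptions were used only for genes of the list, so closer peroxidases outside it would not have been recognised.

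Values are FPKM, in which the fragments of a locus are divided by its exon length and by the number of mapped fragments, so levels of different genes can be set side by side. Fold changes are differences of mean log2(FPKM + 0.1), OEZ minus ZH17, with their standard error from limma. OsLTPL159 itself (LOC_Os10g36160), a lipid transfer protein gene, had 2506, 2539.9 and 2502 FPKM in the 3 OEZ samples, against 141, 138 and 131 FPKM in the 3 ZH17 samples, a log2 fold change of 4.20 (SE 0.05, limma adjusted p = 1.4e-07). In every sample its level matched the label. Between 27083 and 27345 loci per library were above 0, and relative depth ranged from 1.02 to 1.32 in OEZ and from 1 to 1.16 in ZH17, with ZH17 replicate 1 set to 1. Samples of 1 genotype correlated at r = 0.959 to 0.968 over log2 values, and samples of different genotypes at 0.946 to 0.953.

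The most abundant of the 8 genes was LOC_Os04g34630 on chromosome 4. Its FPKM was 64.6, 57.4 and 64.1 in OEZ replicates 1, 2 and 3, against 39.2, 44.2 and 36.2 in ZH17 replicates 1, 2 and 3. The genotypes did not overlap, and OEZ replicate 2 was the lowest of its group while ZH17 replicate 2 was the highest of its own. The means were 62.0 ± 4.02 FPKM in OEZ and 39.9 ± 4.03 FPKM in ZH17 (SD, n = 3 each), with a log2 fold change of 0.64 (SE 0.09). This gene alone held 32.6% of the summed FPKM of the 8 genes in OEZ and 34.2% in ZH17.

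LOC_Os03g02939 had 31.3, 24.7 and 29.2 FPKM in OEZ, against 17.3, 18.2 and 20.2 FPKM in ZH17. All OEZ samples lay above all ZH17 samples, with OEZ replicate 2 closest to them. Its means of 28.4 ± 3.40 FPKM in OEZ and 18.6 ± 1.47 FPKM in ZH17 gave the smallest ratio of the 8, 1.53, and a log2 fold change of 0.61 (SE 0.11). LOC_Os03g22020, also on chromosome 3, had 32.4, 20.3 and 28.9 FPKM in OEZ, against 14.9, 15.3 and 12.3 FPKM in ZH17. Its OEZ samples were the most scattered of any of the 8 genes, since replicate 2 stood well below the other two, but none of them reached the ZH17 range. The means were 27.2 ± 6.23 FPKM in OEZ and 14.2 ± 1.63 FPKM in ZH17, and the log2 fold change was 0.91 (SE 0.18).

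LOC_Os10g02070 had 21.5, 24.6 and 23.7 FPKM in OEZ, against 14.1, 15.8 and 15.2 FPKM in ZH17. Both groups were tight, and here OEZ replicate 2 was the highest of its group instead of the lowest. The means were 23.3 ± 1.56 FPKM in OEZ and 15.0 ± 0.883 FPKM in ZH17, a log2 fold change of 0.63 (SE 0.08). LOC_Os07g31610 had 26.3, 17.7 and 23.6 FPKM in OEZ, against 17.1, 11.9 and 12.1 FPKM in ZH17. Its groups came closest to touching: the lowest OEZ sample was 1.03 times the highest ZH17 sample. The means were 22.5 ± 4.42 FPKM in OEZ and 13.7 ± 2.98 FPKM in ZH17, and the log2 fold change was 0.71 (SE 0.19).

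The remaining 3 genes were expressed at lower levels. LOC_Os08g02110 had 11.2, 9.82 and 11.3 FPKM in OEZ, against 4.49, 6.56 and 7.65 FPKM in ZH17. In this gene the scatter lay in ZH17, whose replicate 1 was the lowest. The means were 10.8 ± 0.829 FPKM in OEZ and 6.23 ± 1.61 FPKM in ZH17, a log2 fold change of 0.81 (SE 0.19). LOC_Os03g32050 had 9.02, 10.5 and 9.62 FPKM in OEZ, against 7.48, 5.92 and 5.05 FPKM in ZH17. As in LOC_Os10g02070, OEZ replicate 2 was the highest OEZ sample, and the groups did not overlap. The means were 9.71 ± 0.733 FPKM in OEZ and 6.15 ± 1.23 FPKM in ZH17, and the log2 fold change was 0.67 (SE 0.15).

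LOC_Os06g48010 was the least abundant gene and had the largest relative difference of the 8. It had 5.81, 6.62 and 7.38 FPKM in OEZ, against 3.18, 2.72 and 3.19 FPKM in ZH17. Its groups were the farthest apart in relative terms, with the lowest OEZ sample at 1.82 times the highest ZH17 sample. The means were 6.61 ± 0.786 FPKM in OEZ and 3.03 ± 0.271 FPKM in ZH17, a ratio of 2.18 and a log2 fold change of 1.10 (SE 0.13).

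**Figure D1:**
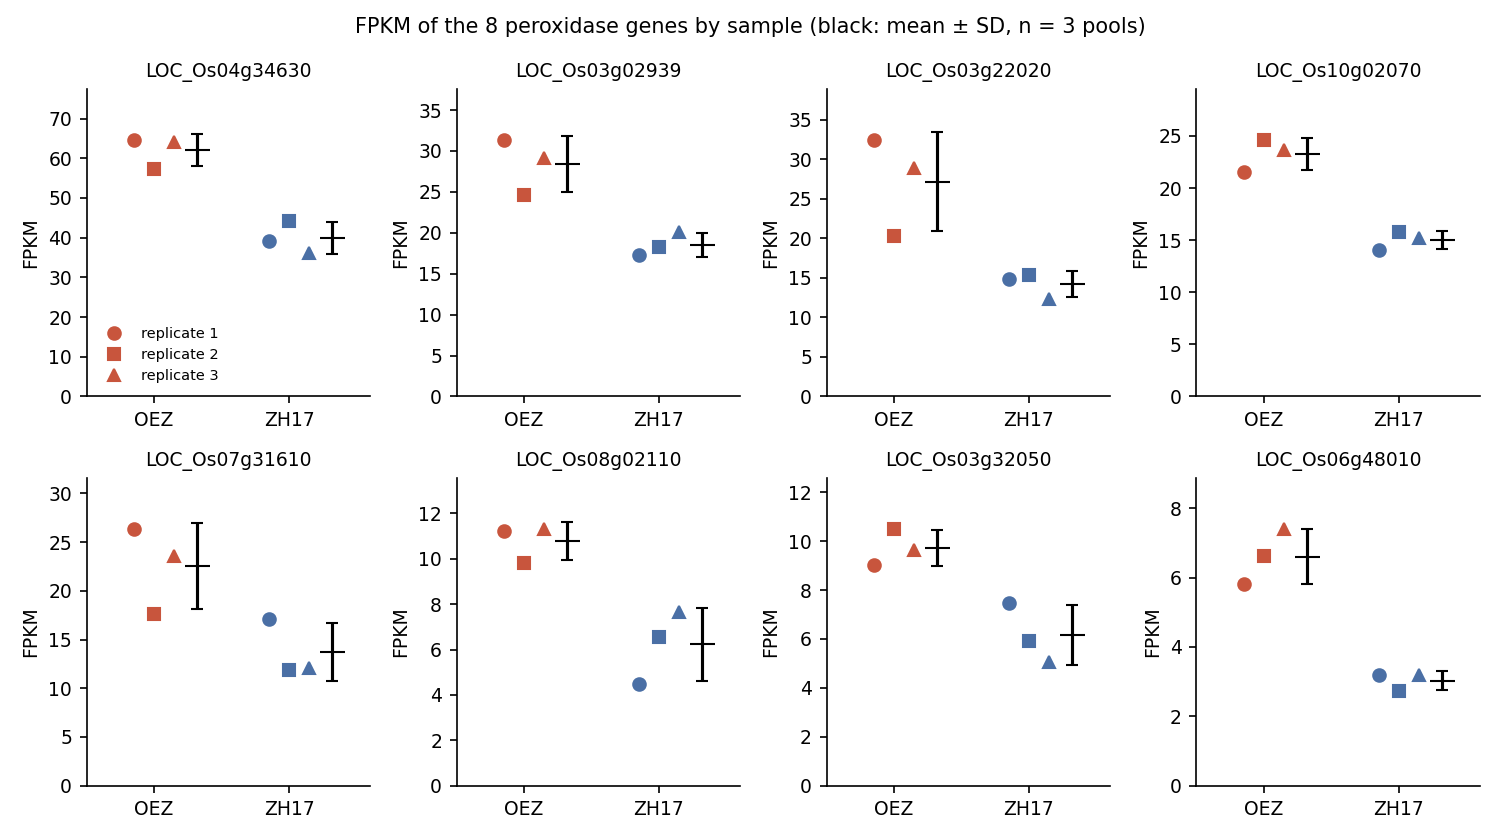
FPKM of each of the 8 dispersed peroxidase genes (vertical axis, linear and starting at 0, a scale for each gene) in the 3 OEZ and 3 ZH17 samples, with replicate number by symbol and mean ± SD in black. Every OEZ point lies above every ZH17 point of the same gene, narrowly for LOC_Os07g31610, where the lowest OEZ sample was 1.03 times the highest ZH17 sample.

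In all 8 genes every OEZ sample exceeded every ZH17 sample. Over all 22841 tested loci, 16.0% were separated in that direction, but the 8 genes were chosen from this contrast and nothing is read from their count. By the thresholds used here (a limma adjusted p under 0.05 with a fold change of 1.5 or more), 6 of the 8 passed as higher in OEZ, where 1.56% of the tested loci did. The 2 that did not pass were LOC_Os07g31610 and LOC_Os08g02110, the genes with the largest standard errors. The median log2 fold change of the 8 genes was 0.69, and that of all tested loci was 0.02. Closest to the limit of 1.5 were LOC_Os03g02939, with a ratio of means of 1.53, and LOC_Os10g02070, with 1.55. Descriptions were used only for genes of the study's list, and no peroxidase of that list with a higher mean in OEZ had a ratio under 1.5. The study's own fold threshold of 1.5 on these samples largely fixed that.

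The count of genes past the thresholds depended on single samples. It was 5 without OEZ replicate 2, 2 without OEZ replicate 1, 1 without OEZ replicate 3 and 3 without ZH17 replicate 2. Higher calls over all 22841 tested loci also fell in these fits, from 357 to 213, 197, 165 and 209 in the same order. The loss of calls there was thus not particular to the peroxidases. Without ZH17 replicate 1 the peroxidase count was 5, with 340 higher calls over all tested loci. Without ZH17 replicate 3 it was 4, although higher calls over all tested loci rose to 437. LOC_Os06g48010 passed in all 6 leave-one-out fits, LOC_Os10g02070 in 4 and LOC_Os04g34630 in 3. The other 5 genes passed in 1 or 2 of these fits.

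The order of levels was nearly the same in both genotypes. In OEZ it ran from LOC_Os04g34630 through LOC_Os03g02939, LOC_Os03g22020, LOC_Os10g02070, LOC_Os07g31610, LOC_Os08g02110 and LOC_Os03g32050 to LOC_Os06g48010. In ZH17 LOC_Os10g02070 stood above LOC_Os03g22020, and the other places were the same. In OEZ the replicates of neighbours in this order overlapped from LOC_Os03g02939 down to LOC_Os07g31610, and again between LOC_Os08g02110 and LOC_Os03g32050. In ZH17 they overlapped from LOC_Os10g02070 down to LOC_Os07g31610 and between LOC_Os08g02110 and LOC_Os03g32050. The exchange of LOC_Os10g02070 and LOC_Os03g22020 was thus within the spread of replicates. LOC_Os04g34630 stood above and LOC_Os06g48010 below all the others in both genotypes, with no overlap. The mean FPKM of LOC_Os04g34630 exceeded that of 87.7% of the tested loci, while that of LOC_Os06g48010 exceeded 34.9%.

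Summed over the 8 genes, FPKM was 190 ± 16.6 in OEZ and 117 ± 4.47 in ZH17 (SD, n = 3 each), a ratio of 1.63. The sum took 0.0214% of the FPKM of an OEZ library on average and 0.0136% of that of a ZH17 library. Of the difference of 73.7 FPKM between the sums, LOC_Os04g34630 contributed 30.0%, LOC_Os03g22020 17.6% and LOC_Os03g02939 13.3%. LOC_Os06g48010, which had the largest ratio, contributed 4.85% because its level was low. The shares of the 8 genes in their sum differed little between genotypes: LOC_Os03g22020 held 14.3% in OEZ and 12.1% in ZH17, and LOC_Os06g48010 held 3.47% in OEZ and 2.60% in ZH17.

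The spread of the 8 genes between replicates of a genotype entered the test that chose them, so it too is a description. Their median SD of log2(FPKM + 0.1) was 0.14 in OEZ and 0.16 in ZH17, and over the 12063 tested loci within the same range of mean FPKM it was 0.093 in OEZ and 0.117 in ZH17. In OEZ the SD ran from 0.10 for LOC_Os04g34630 and LOC_Os10g02070 to 0.35 for LOC_Os03g22020. In ZH17 it ran from 0.09 for LOC_Os10g02070 to 0.39 for LOC_Os08g02110. LOC_Os07g31610 was variable in both, with 0.30 in OEZ and 0.30 in ZH17. OEZ replicate 2 was the lowest OEZ sample for 5 of the 8 genes, with a median deviation of -0.12 (log2) from the OEZ mean. Over all tested loci it was the lowest OEZ sample for 36.1%, beside 36.7% for OEZ replicate 3, and its median deviation was -0.0044.

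OEZ replicate 2 stood apart in genes of the germinating grain. The alpha-amylases, enzymes that break down the starch of the grain during germination, summed over 4 genes to 1.89, 166.6 and 2.05 FPKM in OEZ replicates 1, 2 and 3, against 68.9, 179.8 and 120.4 FPKM in ZH17 replicates 1, 2 and 3. OEZ replicate 2 thus lay within the ZH17 range and the other OEZ samples far below it. Of the 8 grain genes of the study's list (alpha-amylase, glutelin, prolamin and 2S albumin), 7 had a negative log2 fold change, down to -5.17 for the alpha-amylase LOC_Os02g52700, and the other was the glutelin gene LOC_Os02g14600 at 0.17, which was listed at 0 in OEZ replicates 1 and 3. For 3 of the 7, the 2S albumin gene LOC_Os05g41970 and the prolamin genes LOC_Os07g11910 and LOC_Os12g16890, the mean FPKM was instead higher in OEZ, at 1.80, 2.45 and 2.06 times that of ZH17, because replicate 2 was high and the other OEZ samples were near 0 or listed at 0. None passed the thresholds (0 of 8 in limma, 2 at an unadjusted p under 0.05). The 4 storage protein genes among them were higher in OEZ replicate 2 than in any other sample. In OEZ replicate 2 the 8 peroxidases were each above every ZH17 sample, at 0.38 (LOC_Os07g31610) to 1.11 (LOC_Os06g48010) above the ZH17 mean on the log2 scale. The median over the 8 genes was 0.61 there, the lowest of the 3 OEZ samples, with 0.81 in OEZ replicate 1 and 0.74 in OEZ replicate 3. These are values of the contrast that chose the genes, from 1 library.

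Genes of green tissue differed between the genotypes in the same samples. The 11 chlorophyll A-B binding protein genes of the study's list, whose products bind the pigments of the photosynthetic antenna, summed to between 5748 and 6783 FPKM in OEZ and between 10131 and 10765 FPKM in ZH17. Of these genes 10 passed as lower in OEZ and 1 (LOC_Os09g26810, log2 fold change 0.67) as higher, with the largest fall in LOC_Os08g33820 (-0.76), where 1.42% of all tested loci passed as lower. The lower count was 6 without OEZ replicate 3 or without ZH17 replicate 2, and none of the 11 reached a fold of 2. Together with the photosystem genes, 12 of 15 passed as lower and 1 as higher. The part of tissue composition in the peroxidase values was not tested, and in whole seedlings fewer cells of a type and less RNA per cell cannot be told apart.

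**Figure D2:**
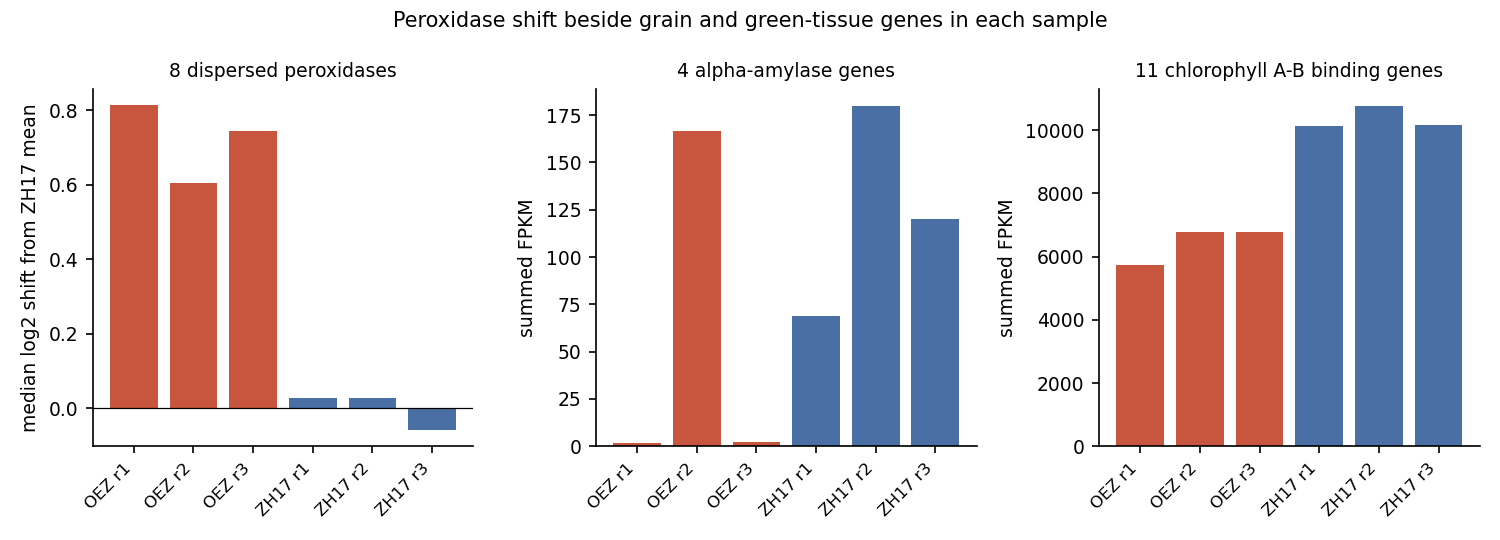
Median log2 shift of the 8 dispersed peroxidases from their ZH17 mean (left), and summed FPKM of 4 alpha-amylase genes (middle) and 11 chlorophyll A-B binding genes (right), in each OEZ and ZH17 sample. OEZ replicate 2 has an alpha-amylase sum of 166.6 FPKM, within the ZH17 range, and the lowest peroxidase shift of the OEZ samples (0.61, beside 0.81 and 0.74). The chlorophyll A-B binding sums of the OEZ samples, up to 6783 FPKM, are below those of every ZH17 sample.

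The 8 genes were next set beside the other peroxidases. The study's list of differentially expressed genes held 34 loci with peroxidase in their description: these 8, a further 10 that the study named beside them, and 16 more. All 34 were chosen on these samples, so their directions are no independent evidence. Of the further 10, 7 lay in the clusters on chromosome 7 and around LOC_Os03g25320, and 3 lay elsewhere (LOC_Os01g15810, LOC_Os02g06630 and LOC_Os08g20730). The log2 fold changes of the 10 ran from 0.70 for LOC_Os07g44480, the only one whose genotypes overlapped, to 2.05 for LOC_Os03g25320, and 4 of them passed as higher, where 1.56% of all tested loci did. That count was 2 without OEZ replicate 3. Among the 3 that lay elsewhere, LOC_Os01g15810 had 10.1, 9.07 and 10.9 FPKM in OEZ, against 5.89, 4.06 and 4.94 FPKM in ZH17, and passed.

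The 8 dispersed genes had a median log2 fold change of 0.69, which compares with 0.91 for the 7 clustered genes and 0.78 for the 3 elsewhere, and no test of the difference was made. In sum of FPKM, the 8 genes and the 10 others were of similar size, at 190 and 211 in OEZ and 117 and 107 in ZH17. A single clustered gene, LOC_Os07g47990, supplied most of the second sum, with 126 ± 6.44 FPKM in OEZ and 66.8 ± 1.41 FPKM in ZH17.

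The study named oxidative stress genes that were higher in OEZ, so the direction of the 16 other peroxidases in its list was largely fixed by that choice. These 16 had lower mean levels in OEZ in all but 1 case. Of the 15 that could be tested, 15 had a negative log2 fold change, from -0.56 (LOC_Os04g59200) to -1.40 (LOC_Os07g48010), and 6 passed as lower in OEZ, where 1.42% of all tested loci did. The lower calls numbered 4 without OEZ replicate 1, 2 without OEZ replicate 2 and 1 without OEZ replicate 3 or ZH17 replicate 2, against 9 without ZH17 replicate 3. The exception was LOC_Os07g34710, which was below the level tested, with 0.166, 0.773 and 0.960 FPKM in OEZ, against 0.158, 0.198 and 0.184 FPKM in ZH17. Their sum was 205 ± 6.99 FPKM in OEZ and 363 ± 35.6 FPKM in ZH17. As a result the 34 peroxidases together had nearly the same sum in both genotypes, 606 ± 21.1 FPKM in OEZ and 587 ± 41.9 FPKM in ZH17, a ratio of 1.03. Among the 34 was LOC_Os02g34810, the only gene of them described as an ascorbate peroxidase. It averaged 21.2 FPKM in OEZ and 36.3 FPKM in ZH17. No other gene of the 34 passed as lower in all 6 leave-one-out fits.

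**Figure D3:**
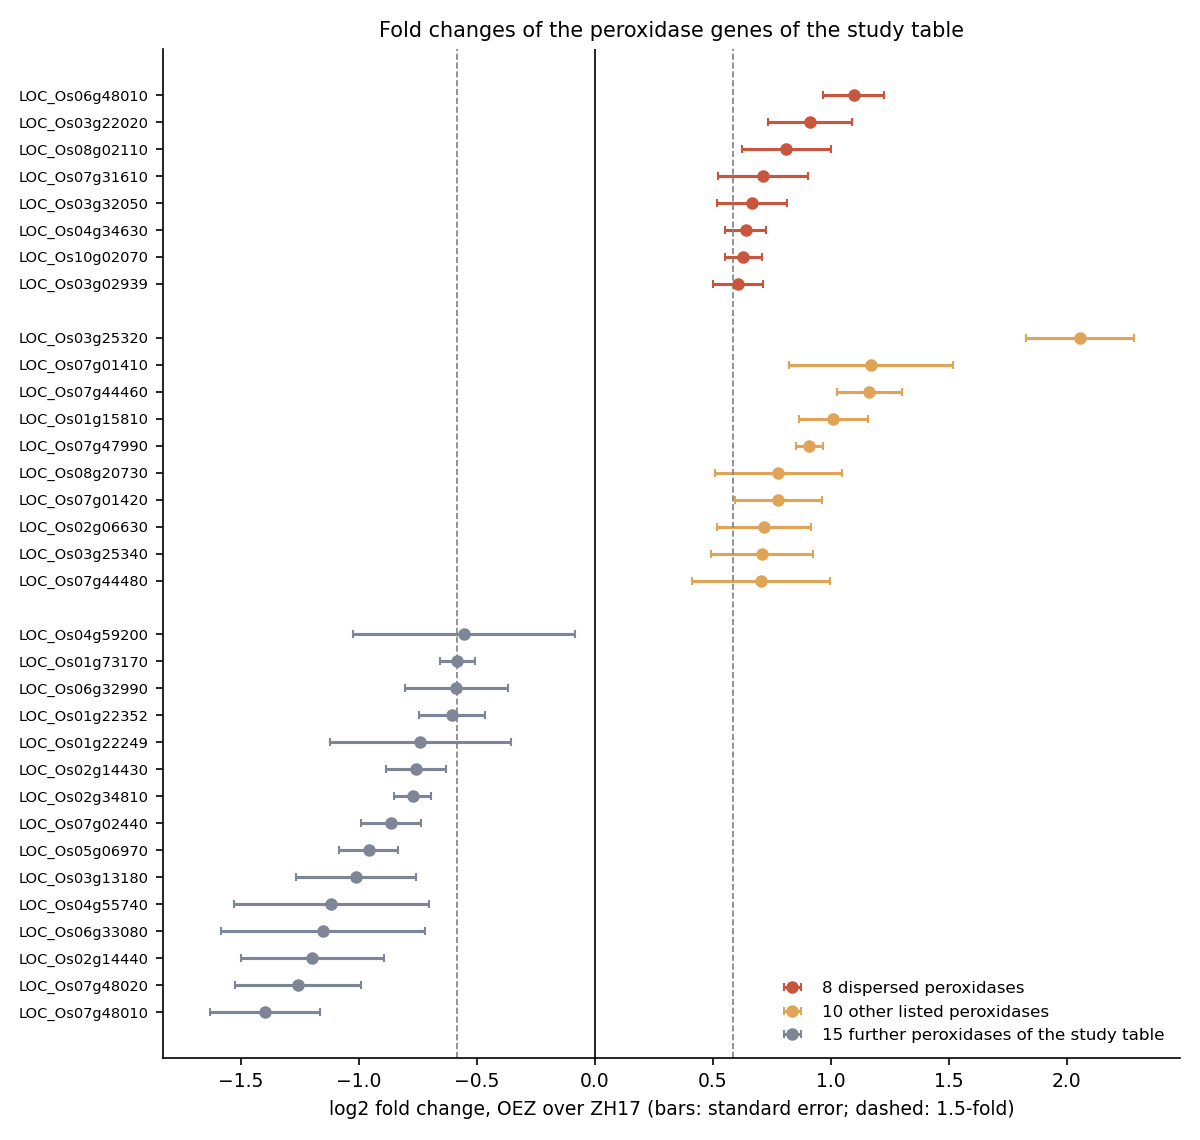
Log2 fold change, OEZ over ZH17, with its standard error for the 8 dispersed peroxidases (red, top), the 10 other peroxidases named by the study (yellow) and 15 further peroxidases of its list (grey). The dispersed genes lie between 0.61 and 1.10, the other named genes reach 2.05, and the 15 further genes lie between -1.40 and -0.56. The named genes were listed by the study as higher in OEZ.

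**Figure D4:**
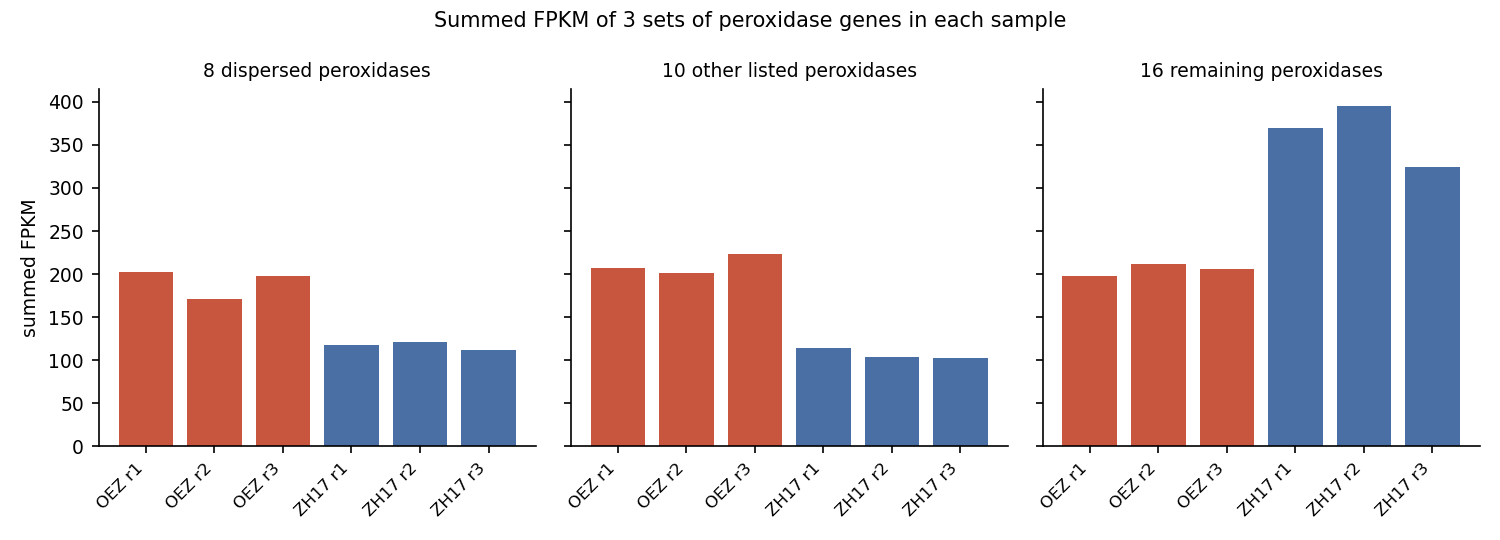
Summed FPKM (vertical axis, starting at 0) of the 8 dispersed peroxidases, the 10 other named peroxidases and the 16 remaining peroxidases in each sample, OEZ in red and ZH17 in blue. The first 2 sums are higher in every OEZ sample than in any ZH17 sample (190 against 117 FPKM on average for the 8 genes), and the third is lower in every OEZ sample (205 against 363 FPKM on average). The genes of the first 2 sums were listed by the study as higher in OEZ.

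The loci around the 8 genes were not used to choose them, and served to ask whether the differences extended along the chromosome. Within 10 places on either side of each gene lay 160 loci, of which 59 were listed at 0 in all 6 samples and 83 were abundant enough to be tested. Of these 83, 0 passed the thresholds in limma, against 2.98% of all tested loci in either direction. At an unadjusted p under 0.05, 20 of the 83 (24.1%) were counted, where 23.2% of all tested loci were. The 20 were unevenly placed: 7 of the 13 tested neighbours of LOC_Os06g48010 were among them (53.8%), and none of those of LOC_Os10g02070 or LOC_Os03g32050. Around LOC_Os06g48010, 4 of the 13 tested neighbours lay below every ZH17 sample in every OEZ sample and 2 lay above. Over all 22841 tested loci, 3022 were separated as lower and 3645 as higher. The median log2 fold change of the 83 was 0.00, and none of the 160 was a peroxidase of the study's list. That list did hold 2 of the 160, LOC_Os04g34590 (log2 fold change -0.75, SE 0.20, limma adjusted p = 0.082) and LOC_Os06g47930 (-0.63, SE 0.14, limma adjusted p = 0.052), both with lower means in OEZ. Descriptions were used only for genes of the list, so a peroxidase among the other neighbours would not have been recognised.

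The neighbour that came nearest to its peroxidase was LOC_Os06g48000, next to LOC_Os06g48010 and singled out after its value was seen. It was expressed at 1.02 FPKM in OEZ and 0.428 FPKM in ZH17 on average, with a log2 fold change of 1.07 (SE 0.32, limma adjusted p = 0.10), and did not pass. For LOC_Os10g02070 only 2 of 20 neighbours could be tested, and for LOC_Os03g32050 5 of 20, so the surroundings of these genes were mostly silent or below the filter. For LOC_Os08g02110, in contrast, 17 of 20 neighbours were tested, with a median log2 fold change of 0.02 beside 0.81 for the gene itself. The count depended on the window: within 20 places 8 of 162 tested loci passed, 4 higher and 4 lower in OEZ. That share was above the 2.98% of all tested loci that passed, so the absence of passing neighbours holds only for the narrower window.

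**Figure D5:**
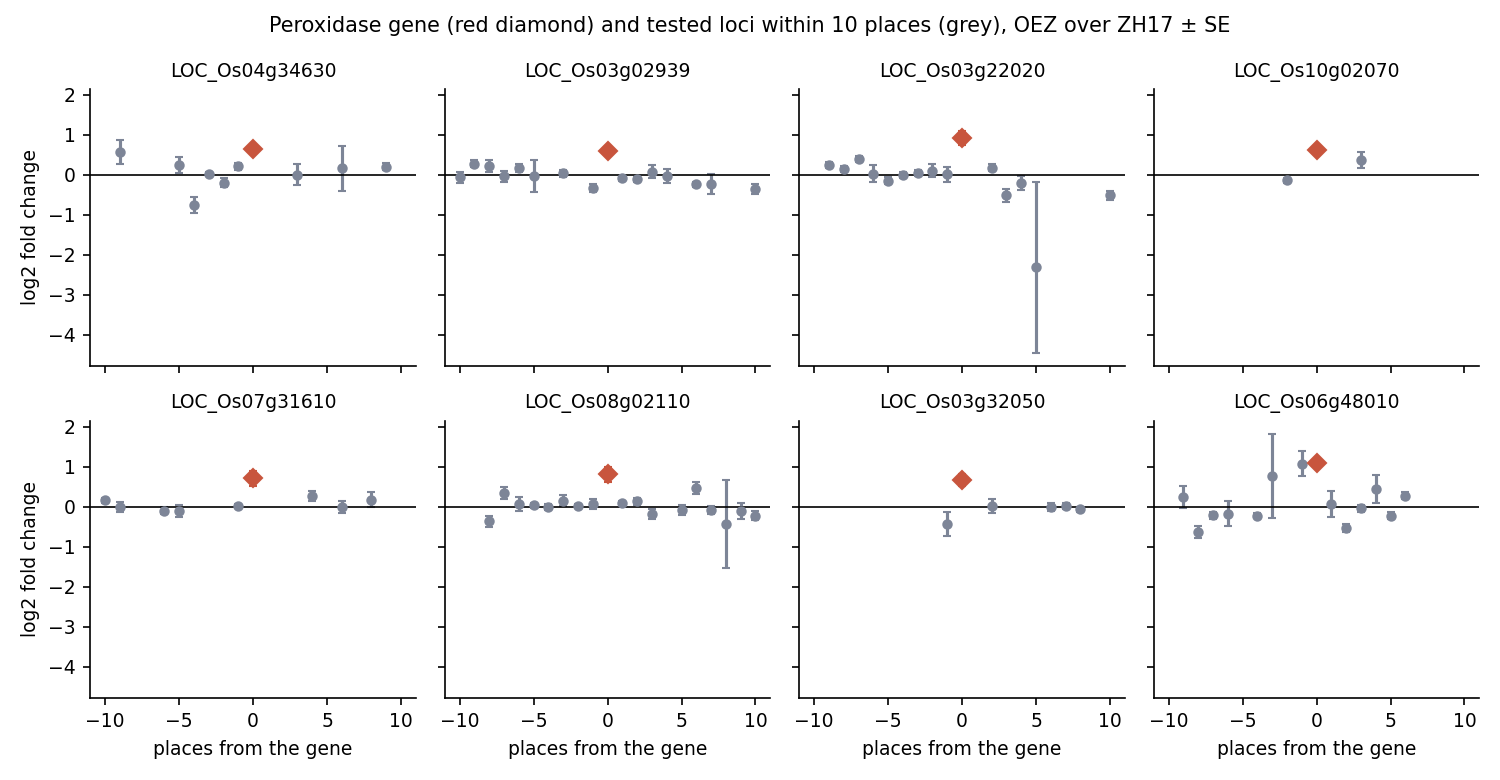
Log2 fold change ± SE, OEZ over ZH17, of each dispersed peroxidase (red diamond) and of the tested loci up to 10 places to either side (grey), 1 panel per gene. The 83 tested neighbours have a median of 0.00 and 0 of them pass the thresholds, while the 8 peroxidases lie between 0.61 and 1.10.

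Genes whose profile over the 6 samples was most like that of the 8 peroxidases were sought among 14698 loci that averaged 5 FPKM or more, by Pearson correlation with their mean profile. The 5 closest were LOC_Os05g49030 (r = 0.999), LOC_Os10g32920 (0.999), LOC_Os08g33920 (0.999), LOC_Os11g03470 (0.998) and LOC_Os11g05470 (0.997). With 6 samples in 2 genotypes these coefficients mainly describe a separation of the genotypes with little scatter, and they carry no p. Of the 5, only LOC_Os11g05470 was in the study's list, described as RCN1, a relative of the flowering regulator TFL1. It had 27.7, 26.1 and 28.6 FPKM in OEZ, against 16.7, 17.0 and 15.7 FPKM in ZH17, a log2 fold change of 0.74 (SE 0.07), and passed in all 6 leave-one-out fits. The other 4 differed by less, with log2 fold changes of 0.20 to 0.33. Each peroxidase correlated with the mean profile of the other 7 at r = 0.82 (LOC_Os08g02110) to 0.97 (LOC_Os04g34630), again over the same 6 samples.

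Peroxidases act in the wall on phenolic compounds that other enzymes supply, and families of that pathway were picked from the study's list by their descriptions. Dirigent proteins, which guide the coupling of phenolic radicals that peroxidases or laccases produce, had 7 of 12 genes past the thresholds as higher in OEZ and 1 as lower. Over all tested loci 1.56% passed as higher and 1.42% as lower. The largest rise was that of LOC_Os11g07770 (log2 fold change 1.54, SE 0.28), and the largest fall that of LOC_Os10g18870 (-2.07, SE 0.40). They passed in 2 and 1 of the 6 leave-one-out fits. The dirigent count was 2 without OEZ replicate 3 or without ZH17 replicate 2, 3 without OEZ replicate 2 and 4 without OEZ replicate 1. Laccases, which also oxidise phenolic compounds, had 2 of 3 genes higher, among them LOC_Os03g18640 with a log2 fold change of 0.84 (SE 0.17), and the third, LOC_Os12g15680, did not pass at -1.91 (SE 0.47). LOC_Os03g18640 passed in 1 and LOC_Os11g48060 in 2 of the 6 leave-one-out fits. Their log2 fold changes in these fits were 0.75 to 0.99 and 0.62 to 0.75.

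Enzymes that make the phenolic precursors did not follow 1 direction. The 3 phenylalanine ammonia-lyase genes, whose enzyme opens the phenylpropanoid pathway, had log2 fold changes of -0.61 (LOC_Os02g41680), -0.65 (LOC_Os02g41670) and -0.74 (LOC_Os04g43800), and 0 passed in limma (2 at an unadjusted p under 0.05). Of 2 cinnamoyl-CoA reductase genes, whose enzyme leads to lignin monomers, LOC_Os09g25150 passed as higher (0.76, SE 0.14; in 2 of the 6 leave-one-out fits) and LOC_Os08g17500 did not pass (-1.78, SE 0.77). Of 6 genes described as O-methyltransferase, 2 passed as higher, with LOC_Os10g02880 the largest (1.49, SE 0.22), and 1 as lower, LOC_Os08g19420 (-1.46, SE 0.17). Left out 1 sample at a time, LOC_Os10g02880 passed in 2 of 6 fits, LOC_Os05g43940 in 3 and LOC_Os08g19420 in all 6.

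Other enzymes that make or remove reactive oxygen species were few in that list. The only respiratory burst oxidase gene, LOC_Os12g35610, whose enzyme makes superoxide at the plasma membrane, had 8.84, 5.08 and 5.24 FPKM in OEZ, against 10.4, 10.3 and 8.32 FPKM in ZH17. Its genotypes overlapped and it did not pass (log2 fold change -0.63, SE 0.22). The only gene with a catalase domain, LOC_Os03g03910, was lower in OEZ, with 4.62, 8.67 and 6.10 FPKM against 13.4, 14.5 and 11.7 FPKM in ZH17 (log2 fold change -1.06, SE 0.22), and passed, but in only 2 of the 6 leave-one-out fits. Catalase breaks down hydrogen peroxide without a phenolic partner. Of 11 glutathione S-transferases, enzymes that couple glutathione to reactive compounds, 2 passed as higher (largest LOC_Os01g27630, 2.20) and 3 as lower (largest LOC_Os10g34020, -1.40). Of the lower ones, LOC_Os10g34020 and LOC_Os10g38360 passed in 0 and LOC_Os01g72170 in 1 of the 6 leave-one-out fits, while LOC_Os01g27630 passed in 3 and the other higher one, LOC_Os01g27390, in all 6. Of 3 aldehyde dehydrogenases 1 passed as higher (LOC_Os09g26880, 0.93) and 1 as lower (LOC_Os08g34210, -0.69), while LOC_Os02g49720 had -0.70 and did not pass. All these families were chosen by the study on these samples, so the counts describe them and are no independent evidence of direction.

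The ubiquitin gene used as the RT-qPCR reference, LOC_Os03g13170, gives a scale for small differences. It averaged 493 ± 16.9 FPKM in OEZ and 406 ± 20.8 FPKM in ZH17 (SD, n = 3 each), a log2 fold change of 0.28 (SE 0.06, limma adjusted p = 0.042), below the fold threshold. With replicate number as a block in the fit, the limma adjusted p of the ubiquitin gene was 0.16. Each of the 8 peroxidases differed by more than the ubiquitin gene, with log2 fold changes of 0.61 to 1.10. The study had chosen them on these samples by a fold threshold above the ubiquitin difference, so nothing is read from this. Relative to the ubiquitin gene the differences of the 8 peroxidases would be smaller by 0.28 on the log2 scale.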

How the data were processed

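RNA-seq was performed on 6 samples, 3 of OEZ and 3 of ZH17. The authors mapped paired-end reads to the Nipponbare genome with TopHat2 and calculated FPKM per locus of the MSU annotation with Cuffdiff, and 1 FPKM value per locus and library was deposited, without a filter on low values. Tool versions are not given in the sources used here. Per the submitters' processing notes the build was IRGSP-1.0. Gene descriptions and the lists were taken from the study's list of 1351 differentially expressed genes, and none of its fold changes or p-values was used. The sources used here describe the replicates as separate pools.

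The 22841 of 55986 loci that averaged 0.5 FPKM or more were compared with limma 3.58.1 (R 4.3.3) on log2(FPKM + 0.1), with a variance trend and Benjamini-Hochberg adjustment. A locus passed with an adjusted p under 0.05 and a fold change of 1.5 or more. All 8 peroxidases passed the filter. Python 3.11.15 with pandas 2.3.3 and numpy 2.4.6 gave the descriptive statistics. Absolute depth is unknown from FPKM. Among loci under 0.15 FPKM, where values are multiples of what a single fragment is worth, the commonest ratio to ZH17 replicate 1 was taken as relative depth.

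The 8 genes and all lists were chosen with earlier results of these data known. The genes named were the 8, the other 10 peroxidases the study names, OsLTPL159, the ubiquitin gene, the largest rise and fall of each list, neighbouring loci past the thresholds and the 5 loci most like the 8 in profile. Further genes of small counts were named after their values were seen. Alternatives were pseudocounts of 1 and 0.01, no filter and a filter at 5 FPKM, median-ratio scaling, quantile normalization, no variance trend, no fold criterion, a fold of 2, the log2 ratio of mean FPKM, a replicate block, leaving out each sample, and windows of 5 and 20 loci. The reference gene table holds no MSU identifiers, so no sequence or coordinate is given.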

Additional observations from a re-analysis of the deposited data

How the results depend on the processing

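The log2 fold changes of the 8 peroxidases were positive in all 103 values from the alternatives, between 0.53 and 1.18, and 102 moved by less than the spread between replicates (the exception was LOC_Os06g48010, 0.91 with a pseudocount of 1). Much of this was fixed in advance. The genotypes did not overlap in any of the 8 genes, so leaving out a sample could not change a sign. A change of filter leaves the fold change of a tested gene as it was. Their median ranged from 0.65 to 0.79. The number past the thresholds, 6, was 3 without the variance trend and 1 at a fold of 2, and 1 to 5 when a sample was left out. LOC_Os06g48010 passed in 15 of 16 alternative fits and was not tested in the other, the filter at 5 FPKM. LOC_Os07g31610 passed in 1 of the 16. Of all tested loci, 681 passed, 1371 without the fold criterion, 290 at a fold of 2, and 272 to 945 when a sample was left out. Of the neighbouring loci 0 passed, but 1 with median-ratio scaling, 1 with quantile normalization, 4 without the fold criterion (LOC_Os03g21960, log2 fold change 0.40, and LOC_Os03g03020, LOC_Os03g22120 and LOC_Os06g48030, with -0.24, -0.51 and -0.52), 8 within 20 places, and 0 to 2 when a sample was left out. Among the 34 peroxidases the count was 16, and 4 to 18 when a sample was left out, 6 at a fold of 2. The cause of these differences was not tested.

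OEZ and ZH17 share replicate numbers, but deviations of same-numbered samples from their group means correlated at only -0.06 to 0.03, so the numbers do not pair the samples. With a replicate block 2 of the 8 peroxidases passed (LOC_Os10g02070 and LOC_Os06g48010), 7 of the 34 peroxidases, 0 neighbouring loci and 321 of all tested loci. With the block 1 of the 34 peroxidases passed as lower, the ascorbate peroxidase gene LOC_Os02g34810. None of the laccase or catalase genes passed with the block, and no glutathione S-transferase passed as lower. Of the 12 dirigent genes, 2 passed as higher and 1 as lower with the block. Absolute depth is unknown from FPKM, so counting error could not be given for any value, and genes near 1 FPKM, such as LOC_Os06g48000, are the least certain.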
